A study of Mus musculus with 6 samples.

Results

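The genes described here are 10 regulators and markers of the neural crest (NC) and of the melanocyte lineage that arises from it: *Tfap2a*, *Tfap2b*, *Sox9*, *Foxd3*, *Msx1*, *Msx2*, *Ets1*, *Mitf*, *Kit* and *Dct*. They were taken by symbol, for their known roles, from a table of 59485 genes, and each symbol matched 1 gene. RNA was measured in whole sciatic nerves at postnatal day 4, from 3 control animals and 3 mutants with 1 library each. The labels call the controls wild-type. The methods give the wild-type animals of this cross no Cre and either 2 floxed alleles of *Adar1* (fl/fl) or a single one (fl/+), together with R26R. The mutants are labelled Ht-PA-Cre; Adar1fl/fl;R26R: Cre under the human tissue plasminogen promoter deletes the floxed *Adar* alleles (the gene of the RNA editing enzyme ADAR1) in NC cells, and R26R is a YFP tracer. A nerve also holds cells that are not of NC origin and keep the gene, so a value adds up the RNA of many cell types, and fewer cells of a type cannot be told apart from less RNA per cell.

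The NC is a transient embryonic cell population at the border of the neural tube, whose cells migrate and form Schwann cells (SCs), melanocytes, peripheral neurons and parts of the facial skeleton. AP-2, SOX, FOXD3, MSX and ETS transcription factors act in its induction, specification and migration. Cells that take the melanocyte fate switch on *Mitf*, the master regulator of that lineage, depend on the KIT receptor, and express *Dct*, which encodes a melanin enzyme. Some melanocytes arise from SC precursors that travel along nerves.

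The values are read counts normalised by the authors to a common library size, and they can be compared between libraries but not between genes. The libraries held 50938349 to 78250094 reads on genes, and a single read was worth 0.727 to 1.27 in value. The targeted gene *Adar* was higher in the mutants, where its value was 9311 to 11768 against 1133 to 2066 in controls (log2 fold change 2.72 ± 0.20 SE, n = 3 each, adjusted p = 4.1e-05 with limma). This goes against the deletion in the labels, and a single value per gene does not separate the deleted segment from the remainder, so every direction below is drawn from the labels alone: "control" and "mutant" mean control-labelled and mutant-labelled libraries. SC markers were clearly present: *S100b*, a calcium-binding protein gene of SCs, had 8163, 8042 and 8379 in controls against 1535, 686 and 887 in mutants.

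A gene is said to have risen or fallen where limma's unadjusted p was at or under 0.05 and the change at least 2-fold. Fold changes are on the scale log2(value + 1), on which the size of a change depends on the pseudocount for genes with few reads, and p-values were adjusted over the 25802 tested genes by the Benjamini-Hochberg method. All 10 genes were tested, but *Tfap2b* and *Msx2* reached the minimum mean of 10 only in the mutants and *Dct* only in the controls. Of the 10, 5 passed the threshold, against 24.2% of all tested genes. *Tfap2a*, *Tfap2b* and *Ets1* rose (13.9% of all tested genes rose), and *Mitf* and *Dct* fell (10.4% of all tested genes fell). These 5 are also the genes whose values did not overlap between genotypes, which was so for 49.2% of all tested genes. The median log2 fold change of the 10 genes was 0.50, beside 0.03 over all tested genes.

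**Figure D1:**
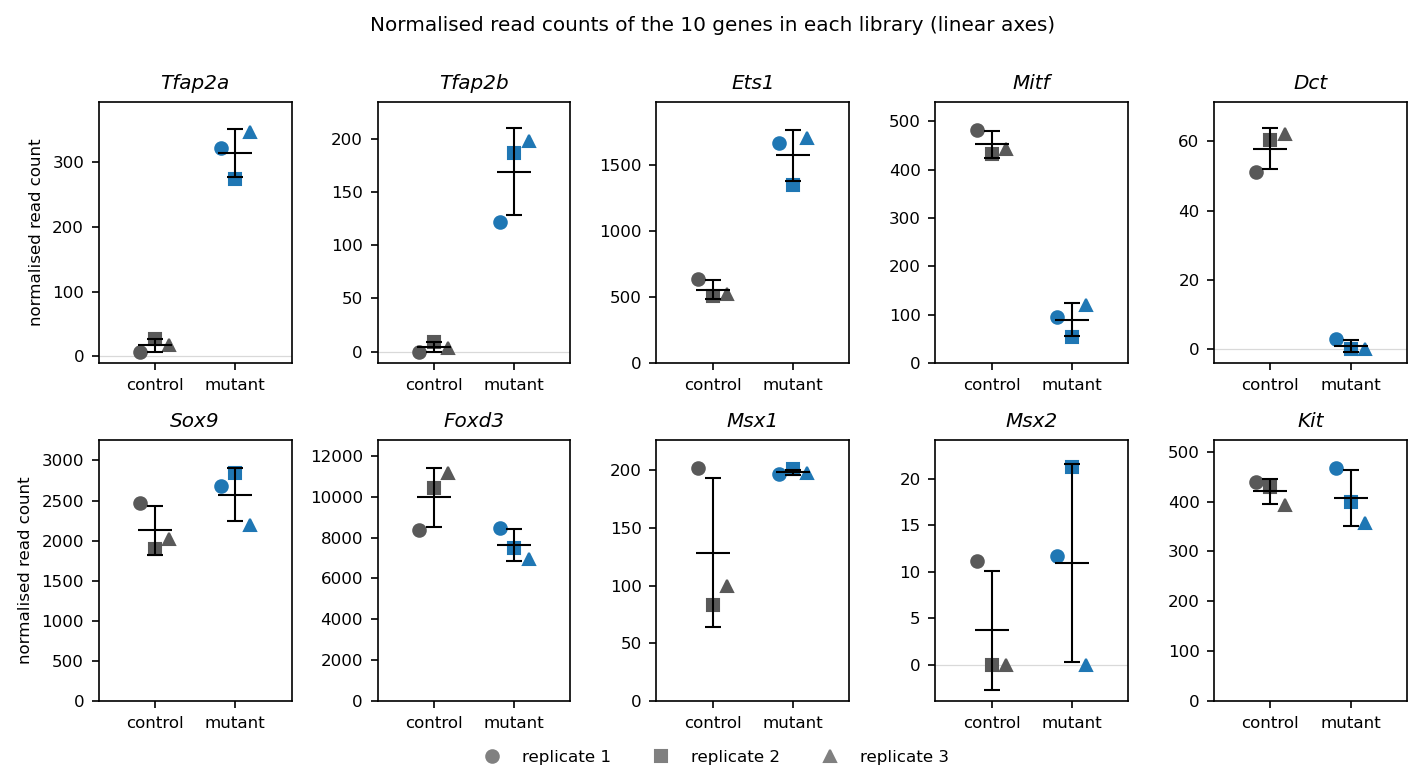
Normalised read count (y axis, linear, a separate scale for each gene) of the 10 genes in the 3 control and 3 mutant libraries. Points are single libraries, horizontal bars are means and whiskers are SDs (n = 3). The upper row holds the 5 genes past the threshold, whose genotypes do not overlap, and the lower row holds the other 5, whose genotypes do.

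AP-2 proteins bind DNA as dimers and are among the earliest factors of the neural plate border. *Tfap2a* (GSMG0010572, mm10 chromosome 13, 40715303 to 40734920, minus strand) had values of 6.66, 26.5 and 17.7 in control replicates 1, 2 and 3 and 322, 274 and 347 in mutant replicates 1, 2 and 3. The lowest mutant lay far above the highest control. The means were 17.0 ± 9.92 and 314 ± 37.2 (SD, n = 3 each), and the log2 fold change was 4.31 (95% interval 3.18 to 5.45, adjusted p = 0.000337). An antisense gene, *Gm26688*, overlaps *Tfap2a*. It had no read in controls and 36.4, 25.1 and 13.8 in mutants, and since the cDNA was oriented but it is not stated that strand was used in counting, reads of the overlap cannot be told apart.

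*Tfap2b* (GSMG0000071, chromosome 1, 19208912 to 19238845, plus strand), the paralog needed in sympathetic and kidney development, was nearly absent from control nerves. Control values were 0, 9.45 and 3.80, which stand for 0, 10 and 3 reads, and mutant values were 122, 187.2 and 198. Its log2 fold change was 5.50 (95% interval 3.56 to 7.43, adjusted p = 0.00153). The size depends on the pseudocount because the control counts are so low, and it lay between 3.66 and 6.74 over the other settings tried. Of the remaining AP-2 genes, *Tfap2d* was at 0 in all 6 libraries, and *Tfap2c* was at 0 in controls and at 0, 5.79 and 3.96 in mutants. *Tfap2e* had values of 0, 0 and 5.07 against 20.4, 1.93 and 7.91 and did not pass the threshold (log2 fold change 2.17, 95% interval -0.55 to 4.90), but it did so without control replicate 3 (3.04) or mutant replicate 2 (2.92).

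Among 4 measured cofactors and repressors of AP-2, *Cited2*, a coactivator that binds CBP and p300, rose. Its values were 1675, 1566 and 1668 in controls and 9754, 9153 and 12044 in mutants (log2 fold change 2.65, adjusted p = 3.9e-06). *Kctd15* and *Kctd1*, which encode repressors of AP-2 activity, had log2 fold changes of 0.87 and 0.28 and did not reach 2-fold, nor did *Cited1* (-0.58). With every library scaled to the same total, *Kctd15* passed the threshold (1.03). These 3 genes were named after their values had been seen.

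*Ets1* (GSMG0039304, chromosome 9, 32636221 to 32757820, plus strand), an ETS factor of migrating cranial and cardiac NC that is also expressed in endothelium and lymphocytes, rose in every mutant. It had values of 640, 509 and 522 in controls and 1669, 1355 and 1709 in mutants, a 2.83-fold ratio of the means. The log2 fold change was 1.50 (95% interval 1.15 to 1.85, adjusted p = 0.000176). *Ets2*, its closest paralog, had a log2 fold change of 0.85 (95% interval 0.57 to 1.13), below 2-fold, and its genotypes did not overlap either. It passed the threshold with every library scaled to the same total (1.01).

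The other NC factors of the set did not pass. *Sox9* (GSMG0006075, chromosome 11, 112782210 to 112787757, plus strand), a SoxE factor of early NC and of cartilage, had values of 2470, 1895 and 2021 in controls and 2681, 2844 and 2200 in mutants. The lowest mutant lay within the controls, and the log2 fold change of 0.28 had a 95% interval of -0.05 to 0.60. Its paralog *Sox8* fell, with values of 1379, 681 and 578 against 578, 289 and 307 (log2 fold change -1.13, adjusted p = 0.0438). That call was lost without control replicate 1 (-0.76), mutant replicate 2 (-0.95) or mutant replicate 3 (-0.996), and with every library scaled to the same total (-0.97). *Sox10*, the SoxE factor of SCs and melanoblasts, did not reach 2-fold, with values of 12618, 11719 and 10920 against 9171, 5838 and 6828 (log2 fold change -0.71, 95% interval -1.08 to -0.35).

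*Foxd3* (GSMG0026776, chromosome 4, 99655797 to 99658671, plus strand) encodes a forkhead repressor that keeps NC cells multipotent and is known to hold back the melanocyte fate. Its values were 8352, 10409 and 11144 in controls and 8470, 7469 and 6928 in mutants, so that the highest mutant lay just above the lowest control. The log2 fold change was -0.38 (95% interval -0.68 to -0.09, adjusted p = 0.0498), an interval that excludes a 2-fold change. An unnamed antisense gene (GSMG0028107) that covers most of *Foxd3* fell by 1.07 on the log2 scale, with values of 586, 880 and 778 against 394, 277 and 399. *Foxd2* had a log2 fold change of 0.57 (95% interval 0.24 to 0.89), and *Foxd4* was at 0 in all libraries.

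MSX homeobox proteins act downstream of BMP signals at the neural plate border. *Msx1* (GSMG0030404, chromosome 5, 37820491 to 37824585, minus strand) had values of 202, 83.2 and 100 in controls and 196, 201 and 198 in mutants. The mutants lay close together, whereas control replicate 1 exceeded both other controls and all mutants. The log2 fold change was 0.73 (95% interval -0.06 to 1.53). Without control replicate 1 it was 1.11 and passed the threshold. *Msx2* (GSMG0010677, chromosome 13, 53466881 to 53473074, minus strand) was near the limit of detection, at 11.1, 0 and 0 against 11.6, 21.2 and 0, so a difference was not detectable at this depth. *Msx3* had no read. Of 8 BMP-linked genes, 4 rose and 1 fell. *Smad7* and *Smad6*, inhibitors of TGF-beta and BMP signals, had log2 fold changes of 2.18 and 1.75, *Id3*, a BMP target, had 1.004, and the ligand *Bmp7* fell by 1.96 on the log2 scale. The fourth gene that rose, *Bmp2*, overlapped between genotypes and was named after its values had been seen. *Id3* lies at the 2-fold limit, and its call was lost under 6 of 18 alternatives.

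In the melanocyte lineage, *Mitf* and *Dct* fell while *Kit* showed no detectable change. *Mitf* (GSMG0032255, chromosome 6, 97807057 to 98021358, plus strand) encodes a basic helix-loop-helix factor that binds E-boxes and the longer M-boxes of pigment genes. It has several promoters, the most downstream of which is used in melanocytes. Values were 483, 432 and 442 in controls and 95.3, 54.0 and 121 in mutants. The controls were tightly grouped, and all mutants lay far below them. The means were 452 ± 27.1 and 90.0 ± 33.6 (SD, n = 3 each), 5.03-fold lower in mutants, with a log2 fold change of -2.39 (95% interval -3.10 to -1.68, adjusted p = 0.000633). Only reads on regions shared by all isoforms were counted, so the transcripts from each promoter are not resolved.

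The relatives of *Mitf* in the MiT family did not pass. *Tfec* had values of 107, 123 and 109 against 77.1, 75.3 and 67.3 (log2 fold change -0.62, 95% interval -1.27 to 0.04). *Tfeb* (-0.13, 95% interval -0.56 to 0.31) and *Tfe3* (0.13, 95% interval -0.09 to 0.36) had intervals that exclude a 2-fold change.

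*Dct* (GSMG0012849, chromosome 14, 118012792 to 118052246, minus strand) encodes dopachrome tautomerase, an enzyme of eumelanin synthesis that is expressed already in melanoblasts. Its values were 51.1, 60.5 and 62.1 in controls, from 46, 64 and 49 reads, and 2.91, 0 and 0 in mutants, from 4, 0 and 0 reads. The transcript was thus at the edge of detection in mutant replicate 1 and undetected in the other mutants. Values of up to 2.89 and 2.97 are possible there from counting error alone (3 reads), and higher ones if mates were counted singly. The log2 fold change was -5.22 (95% interval -7.04 to -3.40, adjusted p = 0.00143), between -7.54 and -2.64 over the other settings, with the pseudocount at both ends. Of its paralogs, *Tyrp1*, another melanin enzyme, did not pass, with 178, 336 and 147 against 337, 75.3 and 225 (log2 fold change -0.21, 95% interval -1.46 to 1.04). *Tyr*, which encodes tyrosinase, the rate-limiting enzyme of melanin synthesis, was too low to test, at 0 in every control and at 0, 13.5 and 5.93 in mutants. A difference between *Dct* and its paralogs was not tested.

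*Kit* (GSMG0029296, chromosome 5, 75574987 to 75656719, plus strand) encodes the receptor tyrosine kinase on which melanoblasts, mast cells and germ cells depend. Its values were 440, 429 and 393 in controls and 468, 398 and 357 in mutants. The genotypes overlapped throughout, and the log2 fold change was -0.05 with a 95% interval of -0.44 to 0.34, which excludes a 2-fold change in either direction. Its ligand gene *Kitl* rose, from 601, 280 and 237 to 687, 821 and 777 (log2 fold change 1.15, adjusted p = 0.0235). That call was lost without control replicate 3 (0.89). Of the related receptor kinases, *Csf1r* of macrophages fell (log2 fold change -1.25, and -0.99 without mutant replicate 3, below 2-fold). *Pdgfra* (0.16) and *Pdgfrb* (-0.23) did not pass, and *Flt3* was too low to test.

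**Figure D2:**
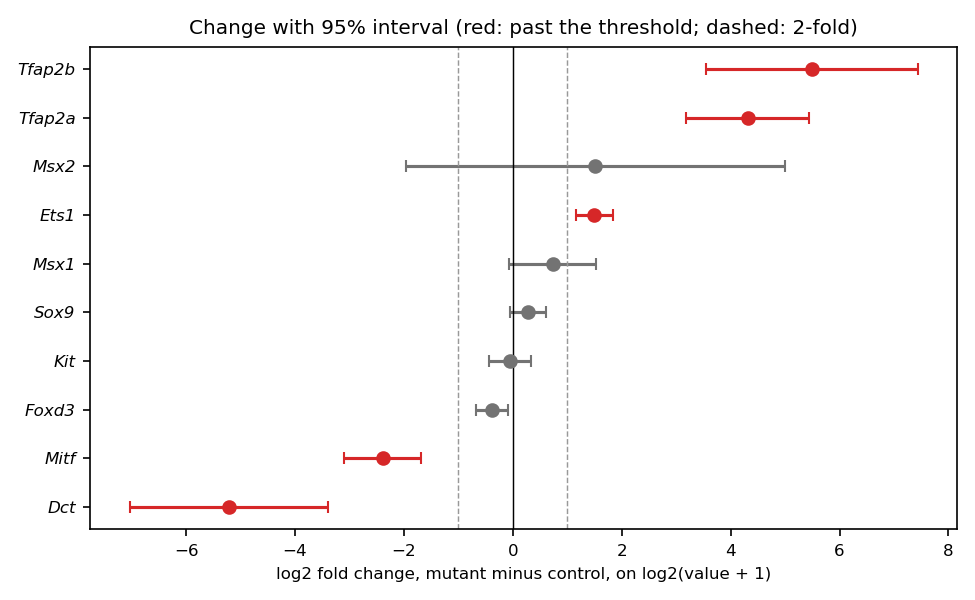
Log2 fold change (x axis, mutant minus control, on log2(value + 1)) of the 10 genes with 95% intervals from limma (n = 3 libraries per genotype). Red marks the 5 genes past the threshold. *Tfap2b* (5.50) and *Dct* (-5.22) lie at the ends, and the intervals of *Sox9*, *Kit* and *Foxd3* stay inside the dashed 2-fold lines.

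Promoter sequence was read for the melanocyte genes, because MITF, AP-2 and CREB are known regulators of this lineage. RefSeq promoters (GRCm38.p6, the build of mm10) were given for 8 of the 10 genes, in 12 windows of 250 bases before a transcript start. All 32851 windows of the table were searched in the same way, on both strands. In the sequences below, capitals mark an M-box (TCATGTG or TCACATG) in *Dct*, a cyclic AMP response element, or CRE (TGACGTCA), in *Mitf* and an AP-2 site (GCCNNNGGC) in *Kit*. The *Kit* run ends where its annotated exon begins.
Dct, chr14:118052247-118052496, minus strand: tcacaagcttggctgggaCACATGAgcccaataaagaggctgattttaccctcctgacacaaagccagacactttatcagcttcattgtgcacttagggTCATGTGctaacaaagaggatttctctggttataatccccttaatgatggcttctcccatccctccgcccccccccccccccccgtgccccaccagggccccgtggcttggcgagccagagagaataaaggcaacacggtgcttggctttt
Mitf, most downstream of 3 starts, chr6:97991533-97991782, plus strand: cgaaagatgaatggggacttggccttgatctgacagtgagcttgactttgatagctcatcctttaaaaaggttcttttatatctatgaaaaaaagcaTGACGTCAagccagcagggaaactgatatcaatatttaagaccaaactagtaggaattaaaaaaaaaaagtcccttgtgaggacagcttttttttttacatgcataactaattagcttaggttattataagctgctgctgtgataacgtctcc
Kit, chr5:75574737-75574915, plus strand: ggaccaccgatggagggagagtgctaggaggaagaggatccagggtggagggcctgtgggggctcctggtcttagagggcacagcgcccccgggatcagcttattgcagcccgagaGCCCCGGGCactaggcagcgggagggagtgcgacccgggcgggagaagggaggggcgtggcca

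*Dct* was the only one of the 12 windows with an M-box. It held 2, at 232 to 226 and 151 to 145 bases before the start and in opposite orientations, and both also read as E-boxes (CANNTG). An M-box was found in 5.82% of all windows and an E-box in 66.2%, and 6 of the 12 windows held an E-box. The CRE, which was added to the search after these sequences had been seen, lay 153 to 146 bases before the *Mitf* start shown and also in the *Foxd3* window, and 1.55% of all windows held it. The AP-2 site was in the windows of *Kit* alone, at 134 to 126 bases before the start shown, against 13.7% of all windows. No window of these genes held the interferon element ISRE (2.98% of all windows), a STAT site (GAS, TTCNNNGAA, 7.02%) or an AP-1 site (TGANTCA, 6.75%). These are matches of letters and not evidence of binding.

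The wider lineage was followed in lists of known genes. Their counts stand beside 13.9% of all tested genes that rose and 10.4% that fell, with a median log2 fold change of 0.03. Of 17 tested NC regulators outside the set, 7 rose, 1 fell (*Sox8*) and 9 did not pass, with a median log2 fold change of 1.02. Without mutant replicate 2, 5 passed in all. The genes named next are the 4 with the largest change among those past the threshold whose genotypes did not overlap, and *Gbx2* and *Zic2* reached the minimum mean in mutants alone. *Gbx2*, a homeobox gene of NC induction, had values of 2.22, 0 and 7.60 against 115, 59.8 and 35.6 (log2 fold change 4.40, and 2.51 to 5.69 over the other settings). *Zic2*, a zinc finger gene of the neural plate border, had 4.44, 0 and 0 against 17.5, 15.4 and 9.89 (3.08, and 3.17 with an unadjusted p just above the limit in edgeR, and 1.09 to 5.29 over the other settings). *Pax3*, which acts upstream of *Mitf* in melanoblasts and is also a gene of muscle progenitors, had 15.5, 29.3 and 22.8 against 74.2, 213 and 123 (2.46). *Snai2*, a repressor of epithelial genes, had 382, 211 and 180 against 814, 797 and 732 (1.67).

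Pigment genes moved in both directions. Of 8 tested of 14, 3 rose, 1 fell and 4 did not pass, with a median log2 fold change of 0.33. Of the 3 that rose, *Mlana* entered the test through the mutants alone. *Pmel*, the scaffold protein of melanosomes, fell by 2.51 on the log2 scale, from 300, 324 and 386 to 74.9, 37.6 and 68.3 (adjusted p = 0.000595). *Mlana*, a melanosome protein gene, had no read in controls and 10.2, 14.5 and 7.91 in mutants. The mutant mean was 2.86-fold the highest value of 3 reads in a control library, and this bound would be lower if mates were counted singly. *Mlph*, a melanosome transport gene, had 71.1, 92.6 and 35.5 against 159, 249 and 204 (log2 fold change 1.68), and *Gpnmb*, which macrophages also express, had 143, 247 and 109 against 444, 520 and 355 (1.46).

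Of 6 tested ligands and receptors of the lineage, 2 rose and 2 fell. The number that rose was 1 without control replicate 3 and 3 under several alternatives. *Met*, the receptor of HGF, lay at the 2-fold limit and passed in 6 of 18 alternatives (log2 fold change 0.99, genotypes not overlapping, named after its values had been seen). *Ednrb*, the endothelin receptor of melanoblasts and enteric NC, which SCs also express, had values of 47959, 45575 and 53296 in controls and 9635, 12690 and 9645 in mutants (log2 fold change -2.21, adjusted p = 1.12e-05). Its ligand *Edn3* fell by 1.60 on the log2 scale, with 309, 223 and 195 against 81.5, 125 and 45.5. *Hgf*, a growth factor for melanoblasts and muscle progenitors, rose from 13.3, 30.2 and 12.7 to 90.9, 194 and 76.2 (log2 fold change 2.61, adjusted p = 0.00664).

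**Figure D3:**
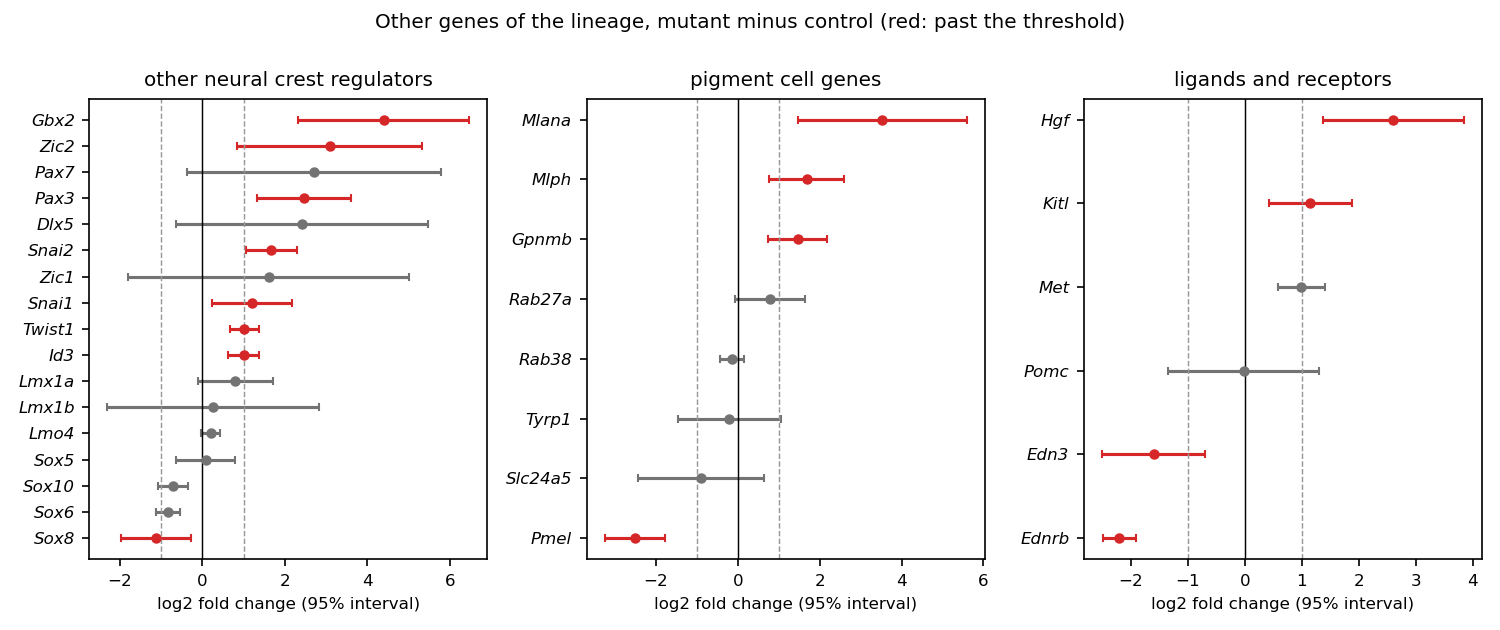
Log2 fold change (x axis, mutant minus control, with 95% intervals from limma, n = 3 libraries per genotype) of the tested genes of 3 lists. Red marks genes past the threshold and dashed lines mark 2-fold. *Gbx2* (4.40) leads the NC regulators, while *Pmel* (-2.51) and *Ednrb* (-2.21) lie at the low ends of the other lists.

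Markers of several, but not all, cell types that express these genes differed between genotypes, and their part in the results was not tested. The marker counts stand beside the same shares, 13.9% of all tested genes that rose and 10.4% that fell. The summed level of 10 melanocyte markers lay between 580 and 784 in controls and between 162 and 490 in mutants. Most of this sum came from *Pmel*, which fell, and *Tyrp1*, which overlapped between genotypes, and the list also holds *Dct* itself. Of the 5 tested genes of this list, *Dct* and *Pmel* fell and *Mlana* rose, while *Tyr* was at 0 in all controls. Mast cells also express *Mitf* and *Kit*: the sum of 10 mast cell markers ranged from 3735 to 12517 in controls, highest in replicate 1, and from 5311 to 6038 in mutants. Of these 10 markers, 4 rose, among them *Tpsab1* (log2 fold change 4.44) and *Hdc* (3.77), 1 of the 4 having entered the test through the mutants alone, and 1 fell, *Cpa3*, also named after its values had been seen (-1.19, lost under 8 of 18 alternatives). Cartilage expresses *Sox9*: of 6 tested chondrocyte markers 4 fell, the summed level was 14528 to 17277 in controls and 981 to 2382 in mutants, and *Col2a1*, the main cartilage collagen, had 10242, 9334 and 11755 against 214, 266 and 94.0 (log2 fold change -5.88).

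Keratinocytes express *Tfap2a*. Of 8 keratinocyte markers 4 rose, but all 4 reached the minimum mean in mutants alone and could be tested only for that reason, and the sums overlapped (317 to 403 in controls, 362 to 609 in mutants). Sympathetic neurons express *Tfap2b*. Of 7 of their markers 1 rose. The sum was 193 to 423 in controls and 367 to 1003 in mutants, highest in mutant replicate 3, where skeletal muscle markers were also highest (6826 to 33450 in controls, 43605 to 311501 in mutants). Of 7 general neuron markers 3 rose (*Elavl3*, *Tubb3* and *Elavl4*, the last of which was lost under 4 of 18 alternatives, among them without mutant replicate 3), and the sums were 3274 to 3636 in controls and 7248 to 7613 in mutants. Without mutant replicate 3 the log2 fold changes were 4.24 for *Tfap2a* and 5.37 for *Tfap2b*, while the muscle sums of the other mutants, 96789 and 43605, were still above all controls.

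Osteoblasts express *Msx2* and BMP genes. Of 6 osteoblast markers 2 rose, *Dmp1* (log2 fold change 1.38, lost under 8 of 18 alternatives) and *Runx2*, a bone regulator gene that overlaps other genes on its strand (3.45). The other 4 did not pass, and 3 of them had lower means in mutants: *Bglap* (log2 fold change -2.03), *Ibsp* (-3.58) and *Sp7* (-1.06). Each of these passed under at least 1 alternative (without mutant replicate 1, without control replicate 1 and without mutant replicate 2, among others). Leaving out 1 library also brought them as near to no change as -0.86, -1.46 and -0.66, in the same order. The median of the list was -0.28, while its sum, mostly from *Alpl*, was 921 to 1438 in controls and 1610 to 1950 in mutants. Macrophages express *Mitf*: of 8 markers 3 fell and 1 rose, and the sums overlapped (17376 to 21788 and 14976 to 18253). Of 8 fibroblast markers only the collagen genes *Col1a1* and *Col3a1* fell (log2 fold changes -1.10 and -1.22), which make up 90.6 to 97.0% of the sum of the list in each library. *Col1a1* was below 2-fold without mutant replicate 3 (-0.87) and with every library scaled to the same total (-0.94). The median of the list was 0.08.

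Lymphocytes and endothelial cells express *Ets1*. Of 9 tested lymphocyte markers 5 rose, 3 of them having entered the test through the mutants alone. Of the 10 listed, 3 were at 0 in all controls, and the sum was 151 to 271 in controls and 885 to 1040 in mutants. None of the 8 endothelial markers passed the threshold with limma (4 had an unadjusted p at or under 0.05), nor with edgeR or DESeq2, and their sums overlapped (14869 to 22534 and 21168 to 28099). All 8 had higher means in mutants, with a median log2 fold change of 0.49, and 3 of them did not overlap between genotypes. Of 7 SC markers, 4 fell, with sums of 75238 to 77561 in controls and 23628 to 35146 in mutants.

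**Figure D4:**
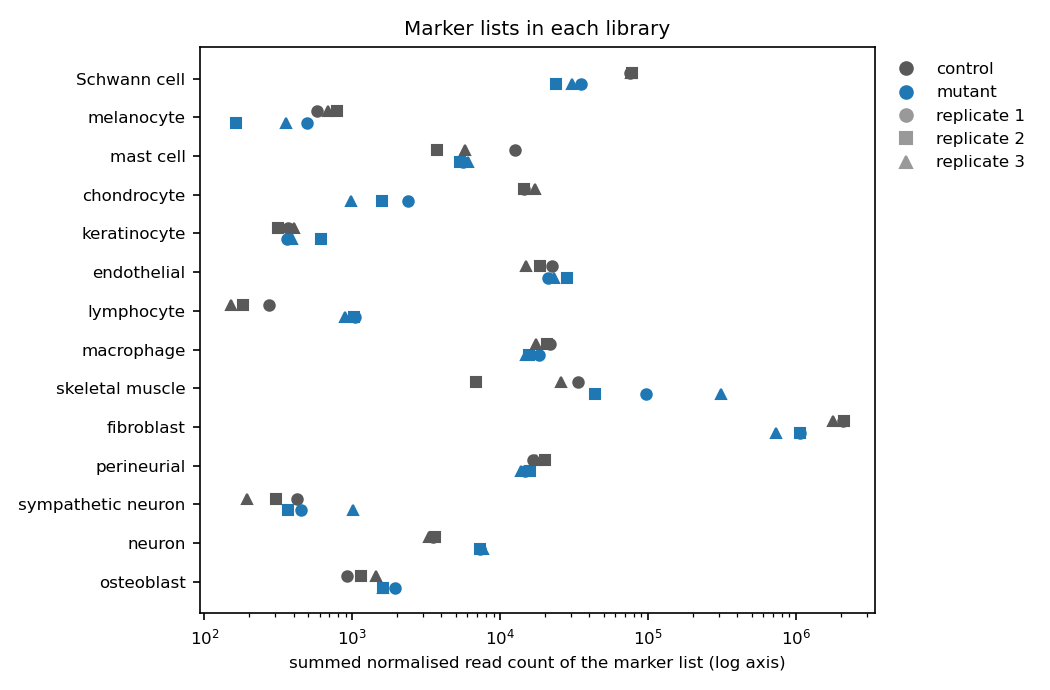
Summed normalised read count of each marker list (x axis, log scale) in each control (grey) and mutant (blue) library. SC, chondrocyte, melanocyte, fibroblast and perineurial markers lie lower in every mutant. Lymphocyte, muscle, neuron and osteoblast markers lie higher in every mutant. Mast cell, keratinocyte, endothelial, macrophage and sympathetic neuron markers overlap between genotypes.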

How the data were processed

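Poly-A RNA of whole sciatic nerves was sequenced as paired-end reads. The authors mapped the reads to mm10 with STAR 2.4.0, counted reads over the constitutive parts of FAST DB genes and scaled each library with DESeq2. The deposited table holds this signal, a normalised read count, for each gene and library. Dividing by the value of 1 read gave whole numbers (within 0.01 reads) for 100% of the values in all 6 libraries. Below 50 reads, 73.0 to 74.4% of these counts were even, so mates may have been counted singly. Counting error is therefore a lower limit on error.

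log2(value + 1) was fitted with limma 3.58.1 (R 4.3.3, eBayes with trend) for genes with a mean of at least 10 in at least 1 genotype. edgeR 4.0.16 and DESeq2 1.42.0 were run on the recovered reads as alternatives, with other pseudocounts, filters and scalings and with each library left out, and the limma, edgeR and DESeq2 fits were tested on simulated data. With 3 animals against 3, an exact permutation test cannot give a p below 0.1. The 10 genes, the lists and the tests were chosen with earlier results of these data known. Named genes were the 10, the targeted gene, their paralogs and neighbours, and up to 4 non-overlapping genes past the threshold from each list, with exceptions stated where they stand. Libraries correlated at 0.941 to 0.951 within and 0.855 to 0.884 between genotypes. The symbols *Asip*, *Foxd1*, *Cited4* and *Cnmd* of the lists were not analysed here, and some marker genes are not reported here.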

Additional observations from a re-analysis of the deposited data

How the results depend on the processing

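Each of the 10 genes was refitted under 12 other settings and with each of 6 libraries left out, except that *Msx2* was filtered out in 2 of these 18 fits. The calls of *Tfap2a*, *Tfap2b*, *Ets1*, *Mitf* and *Dct* held in all of them, edgeR and DESeq2 included, and *Sox9*, *Foxd3*, *Msx2* and *Kit* were called in none. Leaving out 1 library gave log2 fold changes of 3.79 to 4.71 for *Tfap2a*, 4.55 to 6.25 for *Tfap2b*, 1.44 to 1.61 for *Ets1*, -2.64 to -2.07 for *Mitf* and -5.88 to -4.89 for *Dct*. The number of the 10 genes past the threshold was 5 to 6 without 1 library, since *Msx1* joined without control replicate 1 (1.11), and the number without overlap was 5 to 8, the highest also without control replicate 1, when fewer values have to be separated. The sign turned, far from the threshold, for *Kit* with the same total in every library (0.112) and without mutant replicate 3 (range without 1 library -0.155 to 0.0395), for *Tfeb* with the same total (0.0367) and without control replicate 2 (-0.27 to 0.0865), and for *Tyrp1* without control replicate 2 or mutant replicate 2 (-0.661 to 0.412).

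Scaling to the same total moved the median log2 fold change of all genes to 0.20 and the share of rises among genes past the threshold from 57.3 to 66.4% (4261 up, 2156 down), and the same 75th percentile moved them to -0.09 and 50.3%. Same-numbered replicates showed no clear shared deviation (correlations -0.062, -0.055 and 0.009), which cannot show whether the animals were paired. A replicate block left 5 of the 10 genes past the threshold and moved the calls over all genes from 6251 to 6149. Depth limits *Msx2*, *Tfap2b* in controls and *Dct* in mutants.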

Other observations

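The nearest named neighbours of the 10 genes were read as well, as values without a claim about shared control. *Gcnt2*, which encodes a glycosyltransferase and lies 124848 bases from *Tfap2a*, rose with it, from 596, 611 and 545 in controls to 1720, 1653 and 1591 in mutants (log2 fold change 1.50, adjusted p = 4.8e-05 with limma). *Fli1*, the ETS gene next to *Ets1*, had 484, 398 and 308 against 571, 641 and 553 (0.59, below 2-fold). *Kit* lies between *Pdgfra* (0.16) and *Kdr*, the endothelial VEGF receptor gene, which had a log2 fold change of 0.81. The neighbours of *Mitf* and *Dct* that were tested did not pass the threshold: *Frmd4b* had a log2 fold change of 0.30, and *Gpc6* and *Tgds* had 0.37 and 0.35.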
